A study of Homo sapiens with 15 samples.

Results

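The 10 genes described here form the switch that carries a cell from G1 into S phase: the D-type cyclins CCND1, CCND2 and CCND3, the E-type cyclins CCNE1 and CCNE2, the kinases CDK4 and CDK6, the inhibitors CDKN1A and CDKN1B, and RB1. They were chosen by name with no threshold on a measured value, but with earlier results of these data known. Each symbol matched 1 of the 58381 genes counted. Their RNA was followed by bulk RNA sequencing through 5 sublines of VCaP, an established prostate cancer cell line, with 3 replicate libraries for each subline and 15 in all.

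The sublines are successive products of drug and hormone selection. VCaP-T had been kept for 7 months at 10 nM testosterone and depends on it. VCaP-CT was derived from it by lowering testosterone to 0.1 nM for 10 further months, and grows in spite of the low hormone. VCaP-CT-ER came out of VCaP-CT under 10 µM of the antiandrogen enzalutamide (ENZ). VCaP-CT-BR came out of VCaP-CT under an older antiandrogen, bicalutamide, and VCaP-CT-BR-ER out of the bicalutamide-insensitive cells under ENZ. Where 5 values are given below with no names, they stand in this order of the sublines. The doses of bicalutamide and of the later ENZ treatment are not given in the sources used here. The single-sample labels differ from this account, since they give 10 nM testosterone for every subline, and the written protocol places ENZ after bicalutamide in the making of VCaP-CT-BR as well. Each subline is a single derivation, and its treatment, time in culture and derivation cannot be told apart. P-values below therefore measure the spread between libraries of a derivation, which may be technical.

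Between 33665716 and 46935279 fragments were counted per library (median 38500319), and all 15 libraries correlated best with another library of their own subline. Levels are given as CPM, a gene's counts relative to its library's total as scaled by the trimmed mean of M values (TMM), with the mean ± SD of 3 libraries. TPM, the same kind of unit after division by gene length, is used where levels of different genes are compared. All 9 markers of the prostate luminal line were present in every subline, with summed levels from 4059 to 8863 CPM. KLK3, the androgen-driven gene of prostate-specific antigen, had means of 3560, 33.2, 521, 14.1 and 40.0 CPM. Some markers of other cell types were at or near 0. PTPRC and CD3E of leukocytes had at most 2 counts, CDH5 and KDR of endothelium at most 1 count, and COL1A2 of fibroblasts 0 counts. Other markers on the same lists were counted. The highest count in a library was 2144 for LYZ of leukocytes, and 562 for VWF and 128 for PECAM1 of endothelium. Among fibroblast markers it was 309 for COL1A1 and 128 for PDGFRB. The summed level of the 5 leukocyte markers lay between 45.2 and 59.1 CPM in VCaP-T and at most at 1.09 CPM elsewhere, nearly all of it from LYZ. The 4 endothelial markers summed to 13.2 to 16.3 CPM in VCaP-T, 8.16 to 9.31 CPM in VCaP-CT and at most 1.57 CPM in the others. The 5 fibroblast markers summed to between 1.06 and 8.36 CPM. In bulk libraries, fewer cells with a transcript and less of it per cell cannot be told apart.

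D-type cyclins are made in response to growth signals, and in prostate cells androgen is among the signals that feed into them. They bind CDK4 or CDK6, and the complex phosphorylates the retinoblastoma protein RB1, which then lets go of the E2F transcription factors. E2F drives the E-type cyclins and the genes of DNA replication, and cyclin E with CDK2 completes the phosphorylation of RB1. The inhibitors p21 (CDKN1A) and p27 (CDKN1B) bind cyclin-CDK complexes, and p21 is best known as a target of p53.

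Of the 10 genes, 9 passed the filter on low counts and were tested in each comparison by the quasi-likelihood test of edgeR. In the step from VCaP-T to VCaP-CT, 2 rose and 6 fell. Calls were common in these data: 65.3% of the 19621 genes tested were called there, 33.1% higher and 32.2% lower. In the ENZ step from VCaP-CT to VCaP-CT-ER, 7 rose and 1 fell, against 60.9% of all genes called, 29.6% higher and 31.2% lower. In the bicalutamide step from VCaP-CT to VCaP-CT-BR, 3 rose and 2 fell, against 53.2% of all genes, 26.1% higher and 27% lower. In the later ENZ step, which made VCaP-CT-BR-ER out of VCaP-CT-BR, 5 rose and 2 fell, against 42.9% of all genes, 21.2% higher and 21.7% lower. A call by itself thus says little, and the sizes and directions are given gene by gene. The median log2 fold change of the 9 genes was -0.37, 0.56, 0.09 and 0.13 in these 4 steps, and that of all genes tested was 0.03, -0.02, -0.02 and 0.00.

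**Figure D1:**
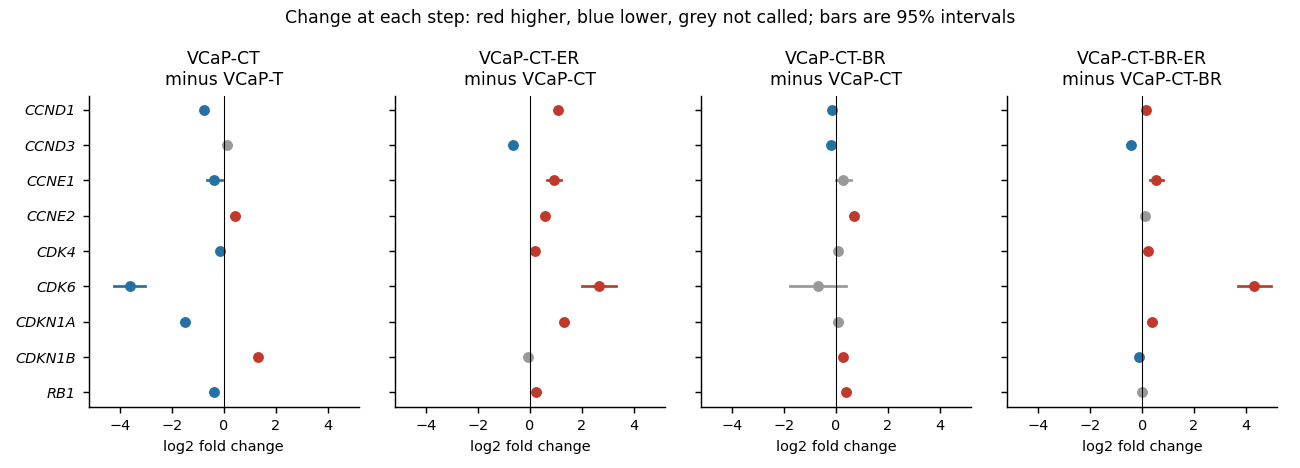
Log2 fold change (x axis) of the 9 tested genes (rows) in each step of the derivation (panels), with 95% intervals of the edgeR fit; red marks genes called higher, blue genes called lower, and grey genes not called. CDK6 moved furthest, from -3.62 in the first step to 4.32 in the last, and CDKN1B is the gene with the largest rise in the first step, at 1.32.

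Some of the tested genes had the same sequence of calls. How many of all genes had this sequence was not counted, so sharing it is not a result about these genes. CCNE1, CDK4, CDK6 and CDKN1A fell from VCaP-T to VCaP-CT, rose in VCaP-CT-ER, were not called in VCaP-CT-BR and rose again in VCaP-CT-BR-ER. CCND1 followed the same sequence except that it was also called lower in VCaP-CT-BR, by a small amount. CDKN1B did not follow it: it rose at low testosterone, rose in VCaP-CT-BR and was the only tested gene of the 9 not called in the ENZ step from VCaP-CT. The CCNE1 fall in the first step was lost under some alternatives, as given below. The ENZ and bicalutamide steps from VCaP-CT share the VCaP-CT libraries, so their values are set side by side and were not correlated. Those libraries also end the first step, and the VCaP-CT-BR libraries end the bicalutamide step and start the later ENZ step. Shared libraries enter consecutive steps with opposite signs, so a fall and a following rise are not independent.

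**Figure D2:**
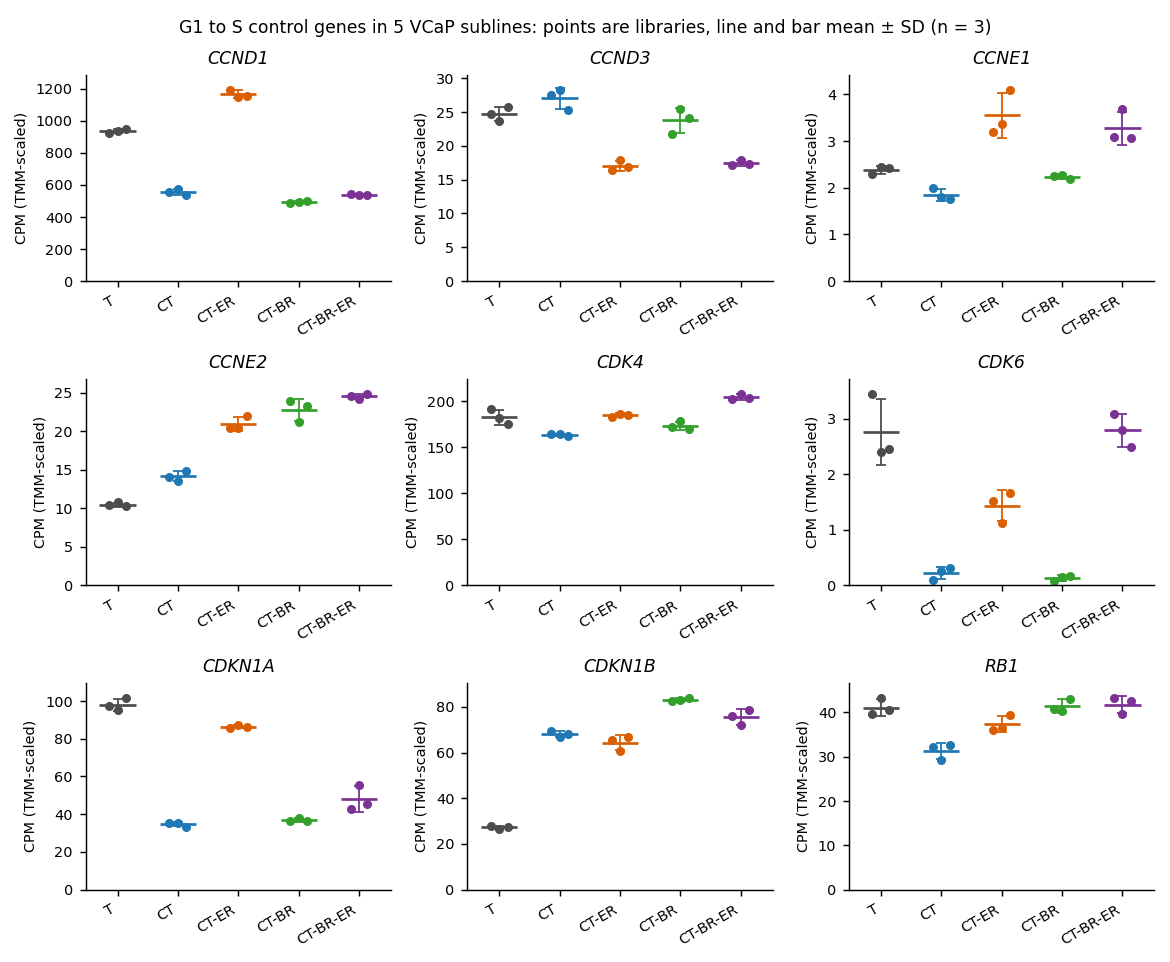
TMM-scaled CPM (y axis, from 0) of the 9 tested genes in the 5 sublines (x axis, VCaP- left out of the names); points are libraries, lines means and bars SD (n = 3). CDK6 is near 0 in VCaP-CT and VCaP-CT-BR, CDKN1A is high in VCaP-T and VCaP-CT-ER, and CDKN1B is low in VCaP-T alone.

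Promoters are shown for 3 genes whose RNA moved most and in different directions: CDKN1A and CDK6, which fell in the first step and rose under ENZ, and CDKN1B, which rose in the first step. Each is the 250 bases before a RefSeq start on GRCh38.p14, read along the gene. CDKN1A lies at chr6:36678464-36678713 on the plus strand, CDK6 at chr7:92836574-92836823 on the minus strand and CDKN1B at chr12:12717118-12717367 on the plus strand. Capitals mark GC boxes (GGGCGG on either strand, which reads CCGCCC on the other), and in CDKN1B also CCAAT boxes.
CDKN1A: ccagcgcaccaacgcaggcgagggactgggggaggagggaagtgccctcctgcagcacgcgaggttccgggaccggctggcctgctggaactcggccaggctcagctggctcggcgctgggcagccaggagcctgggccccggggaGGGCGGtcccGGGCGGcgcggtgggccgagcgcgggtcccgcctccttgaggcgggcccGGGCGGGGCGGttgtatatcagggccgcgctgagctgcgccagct
CDK6: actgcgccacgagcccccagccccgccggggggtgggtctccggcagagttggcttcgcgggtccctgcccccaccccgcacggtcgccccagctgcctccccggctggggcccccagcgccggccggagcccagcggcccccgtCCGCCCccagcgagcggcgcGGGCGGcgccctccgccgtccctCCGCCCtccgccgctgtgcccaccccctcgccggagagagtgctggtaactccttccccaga
CDKN1B: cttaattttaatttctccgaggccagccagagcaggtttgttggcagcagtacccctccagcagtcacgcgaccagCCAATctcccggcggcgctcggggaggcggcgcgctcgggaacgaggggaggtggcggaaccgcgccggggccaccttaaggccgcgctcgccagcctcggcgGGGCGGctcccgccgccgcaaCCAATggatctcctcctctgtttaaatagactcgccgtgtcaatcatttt

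The CDKN1A promoter holds 4 GC boxes, the last pair sharing a base, the CDK6 promoter 3, and the CDKN1B promoter 1 GC box and 2 CCAAT boxes. Such letters are common: 42.6% of 35116 RefSeq promoters of this length hold a GC box and 32% a CCAAT box on either strand. GC content was 76.4% for CDKN1A, 80% for CDK6 and 64.4% for CDKN1B. None of the 3 windows held, on either strand, the E2F motif TTTNNCGC, which 5.92% of promoters hold. The same was true of the letters TATAAA for a TATA box, found in 10.7% of promoters. Of the other members, CCNE1 holds 7 GC boxes in its window, CCND3 5 and CDK4 3, and the table gave no window for CCND1, CCND2 and CCNE2. The RefSeq starts lie inside the gene models used for counting, 2254 bases from the upstream end for CDKN1A, 2310 for CDKN1B, 21 for CDK6, 93 for CCNE1, 1669 for CCND3 and 3703 for CDK4. That of RB1 lies 172724 bases inside, and its window was left aside.

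CCND1, the cyclin D of most epithelial cells, was the most abundant of the 10 genes per length in every subline (258 to 627 TPM as subline means). It is ENSG00000110092.3, at chr11:69641087-69654474 on the plus strand, with 4830 exon bases. It read 922, 937 and 949 CPM in the VCaP-T libraries and 555, 572 and 537 CPM in VCaP-CT, 1.69-fold lower (log2 fold change -0.76, SE 0.04, edgeR adjusted p = 6.67e-13). In VCaP-CT-ER it read 1194, 1147 and 1158 CPM, above every other library of the series and 2.10-fold over VCaP-CT (log2 1.07, SE 0.04, edgeR adjusted p = 2.51e-15). In VCaP-CT-BR it read 485, 494 and 499 CPM, and in VCaP-CT-BR-ER 544, 536 and 537 CPM. These libraries all lie near or under VCaP-CT: the bicalutamide step was -0.17 (SE 0.04, edgeR adjusted p = 0.00116) and the later ENZ step 0.13 (SE 0.04, edgeR adjusted p = 0.0120). Only VCaP-CT and VCaP-CT-BR-ER overlapped among neighbours in the order of levels. Of its exon bases 10.3% are shared with LTO1 on the opposite strand, at 13.1 to 17.8 CPM far below CCND1.

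CCND3, a second cyclin D, was low and went its own way. It is ENSG00000112576.12, at chr6:41934933-42050357 on the minus strand. It read 24.8, 23.7 and 25.7 CPM in VCaP-T, 27.6, 28.3 and 25.3 CPM in VCaP-CT and 21.8, 25.5 and 24.2 CPM after bicalutamide in VCaP-CT-BR, ranges that overlap from each subline to the next. Both ENZ-selected sublines were lower than every one of those libraries, with 16.4, 17.9 and 16.8 CPM in VCaP-CT-ER and 17.1, 17.9 and 17.4 CPM in VCaP-CT-BR-ER. CCND3 thus fell in the ENZ step from VCaP-CT, by 0.66 on the log2 scale (SE 0.07, edgeR adjusted p = 3.11e-08), and in the ENZ step from VCaP-CT-BR, by 0.45 (SE 0.07, edgeR adjusted p = 1.82e-05). It was the only member called lower in both. In the first step its difference was 0.13 (95% interval -0.01 to 0.27) and not called. The small fall in VCaP-CT-BR, -0.18 with an edgeR adjusted p of 0.0260, was lost without a filter on low counts (edgeR adjusted p = 0.0704), without VCaP-CT-BR replicate 1 (edgeR adjusted p = 0.150), VCaP-CT replicate 1 (0.111) or VCaP-CT replicate 2 (0.147), and in a fit of only the compared sublines (0.083).

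CCND2, the remaining D-type cyclin, had 0 to 4 counts in any library and 11 in all 15, and was not tested. It is ENSG00000118971.7, at chr12:4273772-4305350 on the plus strand. The floor of 3 counts is 0.0639 to 0.0891 CPM, which covers counting error only. Its neighbours TIGAR, C12orf4 and RAD51AP1 had at least 277, 619 and 556 counts in every library. A count near 0 does not show that a transcript is absent here, because some genes that all cells use are listed near 0 as well: KANSL1 had at most 4 counts and CDK7 at most 7. These genes were picked after their values were seen, and the cause was not tested.

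Per length, CCND1 made up 97.8% ± 0.079 (SD, n = 3), 96.1% ± 0.11, 98.8% ± 0.073, 96.1% ± 0.25 and 97.4% ± 0.078 of the summed D-type cyclins over the 5 sublines. The small remainder was CCND3, which held 2.15%, 3.9%, 1.20%, 3.87% and 2.63%. CCND3's share was thus lowest where CCND1 was highest. The summed level of the D-type cyclins was 523, 296, 635, 268 and 288 TPM.

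CDK4, a kinase partner of the D-type cyclins, varied least of all members, with its highest subline mean 1.25-fold over its lowest. It is ENSG00000135446.16, at chr12:57747727-57756013 on the minus strand. Its libraries read 191, 181 and 175 CPM in VCaP-T and 164, 164 and 162 CPM in VCaP-CT. They read 183, 187 and 185 CPM in VCaP-CT-ER, against 172, 178 and 170 CPM for VCaP-CT-BR. The libraries of VCaP-CT-BR-ER read 202, 208 and 204 CPM. VCaP-CT was the lowest and VCaP-CT-BR-ER the highest, each clear of its neighbour in the order. The first step was -0.16 (SE 0.04, edgeR adjusted p = 0.00290), the ENZ step from VCaP-CT 0.18 (SE 0.04, edgeR adjusted p = 0.00117) and the ENZ step from VCaP-CT-BR 0.24 (SE 0.04, edgeR adjusted p = 0.000109). The bicalutamide step was 0.08 (95% interval -0.0049 to 0.173), which was not called. Of its 3168 exon bases, 43.2% also belong to TSPAN31 on the opposite strand, and fragments were counted without regard to strand. TSPAN31 changed by -0.38, 0.50, -0.04 and 0.14 in the 4 steps, so the part that shared bases play in the CDK4 values was not tested.

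CDK6, which can stand in for CDK4, was the member that changed most and the least abundant of the 9 tested per length. It is ENSG00000105810.9, at chr7:92604921-92836594 on the minus strand, with 12260 exon bases. It had 125, 88 and 104 counts in VCaP-T (3.44, 2.40 and 2.45 CPM) but 3, 9 and 11 counts in VCaP-CT (0.0906, 0.256 and 0.307 CPM). This was a 12.3-fold fall (log2 -3.62, SE 0.29, edgeR adjusted p = 4.38e-10), from a low level to a handful of fragments. In VCaP-CT-ER it had 73, 54 and 67 counts (1.51, 1.13 and 1.66 CPM), a 6.38-fold rise over VCaP-CT (log2 2.67, 95% interval 2.02 to 3.33, edgeR adjusted p = 2.35e-07).

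VCaP-CT-BR again had few fragments of CDK6, at 3, 6 and 7 counts (0.0778, 0.157 and 0.174 CPM), a difference from VCaP-CT of -0.68 (95% interval -1.76 to 0.40) that was not called. VCaP-CT-BR-ER had 127, 103 and 95 counts (3.09, 2.79 and 2.49 CPM), 20.0-fold over VCaP-CT-BR (log2 4.32, 95% interval 3.69 to 4.96, edgeR adjusted p = 2.77e-10). The levels of VCaP-CT-BR-ER overlapped those of VCaP-T, and all other libraries were lower than both. CDK6 passed the filter through the 3 sublines where it is high, so a difference from the other sublines was built into its being tested. Even at its highest it held 0.388% ± 0.066 (SD, n = 3) of the summed CDK4 and CDK6 per length, in VCaP-T. That share depends on the length used: it was 0.222% with unshared exon bases as the length, and without division by length CDK4 held 98.52% there. Per length, CDK4 held the rest, at 99.61%, 99.97%, 99.8%, 99.98% and 99.65% over the 5 sublines.

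The E-type cyclins, which act with CDK2 late in G1, differed from each other. CCNE1 is ENSG00000105173.13, at chr19:29811898-29824308 on the plus strand, and had 63 to 165 counts per library. It read 2.29, 2.45 and 2.43 CPM in VCaP-T, 1.99, 1.79 and 1.76 CPM in VCaP-CT and 3.19, 3.36 and 4.10 CPM in VCaP-CT-ER. VCaP-CT-BR libraries read 2.26, 2.28 and 2.18 CPM, and those of VCaP-CT-BR-ER 3.09, 3.69 and 3.07 CPM. Both ENZ-selected sublines were thus above all other libraries and overlapped each other. CCNE1 rose 1.91-fold in the ENZ step from VCaP-CT (log2 0.94, SE 0.13, edgeR adjusted p = 2.60e-06) and 1.46-fold in the later one (log2 0.55, SE 0.13, edgeR adjusted p = 0.00140). In the bicalutamide step its difference was 0.28 (95% interval -0.02 to 0.57), not called. Its fall in the first step, -0.37 with an edgeR adjusted p of 0.0254, was lost with DESeq2 (adjusted p = 0.067), without a filter (edgeR adjusted p = 0.0639), and without VCaP-CT replicate 2 (0.0616), VCaP-CT replicate 3 (0.0681) or VCaP-T replicate 2 (0.0607).

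CCNE2 is ENSG00000175305.17, at chr8:94879770-94896678 on the minus strand, and had a higher mean in each subline than in the one before. It read 10.4, 10.8 and 10.3 CPM in VCaP-T, 14.1, 13.5 and 14.9 CPM in VCaP-CT and 20.5, 20.4 and 22.0 CPM in VCaP-CT-ER. VCaP-CT-BR libraries read 23.9, 21.1 and 23.3 CPM, and those of VCaP-CT-BR-ER 24.6, 24.2 and 24.8 CPM. The order of the means was the order of the list, and only VCaP-CT-ER and VCaP-CT-BR overlapped. It rose in the first step (log2 0.44, SE 0.07, edgeR adjusted p = 1.26e-05), under ENZ from VCaP-CT (0.56, SE 0.07, edgeR adjusted p = 2.09e-07) and in the bicalutamide step (0.69, SE 0.07, edgeR adjusted p = 2.45e-08). The later ENZ step added 0.11 (95% interval -0.02 to 0.24) and was not called. No other member was called higher in both the first step and the bicalutamide step apart from CDKN1B. Of its 4397 exon bases 37.1% are shared with INTS8 on the opposite strand, which changed by 0.25, -0.10, 0.33 and -0.11 in the 4 steps. The part of these shared bases was not tested.

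Per length, CCNE2 was the larger of the pair in every subline, at 71.8% ± 0.72 (SD, n = 3), 81.6% ± 1.4, 77.5% ± 1.6, 85.5% ± 0.99 and 81.3% ± 1.8 of their sum over the 5 sublines. With only the unshared exon bases as the length, the shares were 80.2%, 87.6%, 84.5%, 90.4% and 87.4%. Their summed level was 8.77 TPM in VCaP-T and 9.78 TPM in VCaP-CT, and 16.0, 15.3 and 17.3 TPM in the later 3. The antiandrogen-resistant sublines thus had more E-type cyclin RNA than both earlier ones, with no overlap of libraries.

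CDKN1A, which encodes p21, moved much as CCND1 did. It is ENSG00000124762.13, at chr6:36676460-36687339 on the plus strand, with 3050 exon bases. It read 97.5, 95.2 and 101.5 CPM in VCaP-T and 35.3, 35.4 and 33.4 CPM in VCaP-CT, 2.83-fold lower (log2 -1.50, SE 0.07, edgeR adjusted p = 9.68e-14). In VCaP-CT-ER it was back at 85.9, 87.3 and 86.1 CPM, 2.49-fold over VCaP-CT (log2 1.32, SE 0.07, edgeR adjusted p = 1.02e-12). In VCaP-CT-BR it read 36.3, 38.2 and 36.1 CPM, a difference from VCaP-CT of 0.09 (95% interval -0.06 to 0.24) that was not called. VCaP-CT-BR-ER read 42.8, 55.7 and 45.5 CPM, higher than VCaP-CT-BR by 0.38 on the log2 scale (SE 0.07, edgeR adjusted p = 0.000171), with replicate 2 well above the others. The antisense DINOL shares 4.8% of its exon bases. Over the 15 libraries the log2 CPM of CDKN1A and CCND1 had a Pearson correlation of 0.91, the highest among the 36 pairs of tested members. The points share 5 sublines, so they are not 15 independent cases.

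CDKN1B, which encodes p27, moved the other way in the first step. It is ENSG00000111276.10, at chr12:12715058-12722371 on the plus strand, with 2811 exon bases, none of them shared. It read 27.9, 26.6 and 27.5 CPM in VCaP-T and 69.4, 67.0 and 68.3 CPM in VCaP-CT, 2.5-fold higher (log2 1.32, SE 0.05, edgeR adjusted p = 5.77e-15). It read 65.4, 60.6 and 66.9 CPM in VCaP-CT-ER and 82.4, 82.9 and 83.8 CPM in VCaP-CT-BR. The libraries of VCaP-CT-BR-ER read 76.2, 72.0 and 78.6 CPM. VCaP-T was therefore lower than every other library, and VCaP-CT-BR the highest. The ENZ step from VCaP-CT was -0.09 (95% interval -0.19 to 0.02), not called, and the bicalutamide step was 0.28 (SE 0.05, edgeR adjusted p = 7.34e-05). The later ENZ step, -0.14 with an edgeR adjusted p of 0.0341, was lost without a filter (0.192) and without any of 9 libraries, with edgeR adjusted p from 0.0502 to 0.2195: VCaP-T replicates 1 and 3, VCaP-CT replicate 3, VCaP-CT-ER replicate 1, VCaP-CT-BR-ER replicates 1 and 2, and each library of VCaP-CT-BR.

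**Figure D3:**
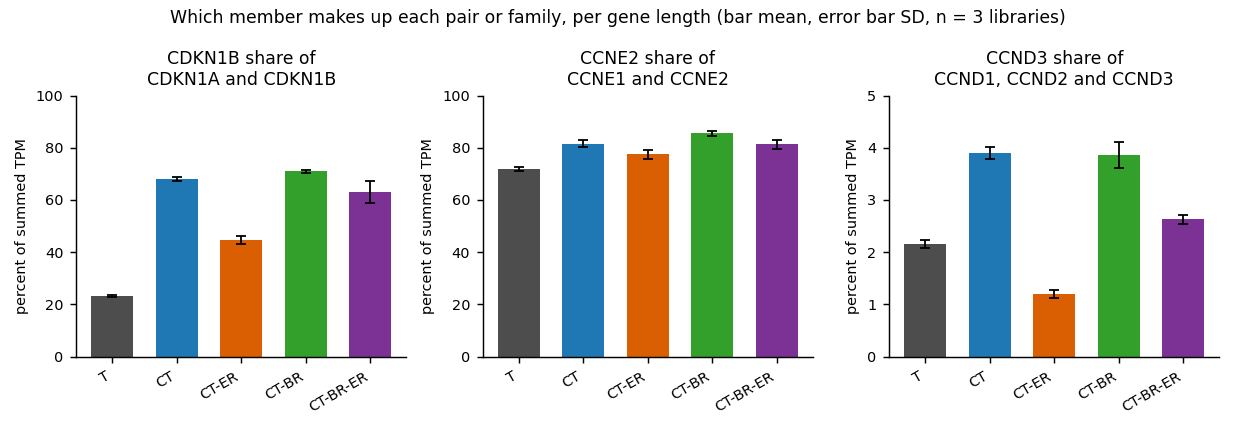
Share of a member in the summed TPM of its pair or family (y axis, percent, from 0) in the 5 sublines (x axis), with bars at the mean of 3 libraries and error bars of 1 SD; the CCND3 panel is drawn on a scale of 0 to 5%. CDKN1B made up 23.2% of the 2 inhibitors in VCaP-T and 68.1% in VCaP-CT, and dropped to 44.7% in VCaP-CT-ER.

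Because the inhibitors moved in opposite directions in the first step, their balance turned over there. It turned back in VCaP-CT-ER, where CDKN1A rose and CDKN1B was not called. Per length, CDKN1B was 23.2% ± 0.50 (SD, n = 3), 68.1% ± 0.83, 44.7% ± 1.5, 71.0% ± 0.69 and 63.2% ± 4.2 of the summed inhibitors over the 5 sublines. VCaP-T and VCaP-CT-ER were thus the sublines with more CDKN1A than CDKN1B. Their summed level moved less, at 110.7 ± 5.4, 88.3 ± 2.1, 133 ± 2.3, 105 ± 1.2 and 107 ± 2.3 TPM.

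RB1, the substrate of these kinases and a tumour suppressor that is lost in part of advanced prostate cancers, was present in every library. It is ENSG00000139687.14, at chr13:48303726-48599436 on the plus strand, with 1030 to 1779 counts per library. It read 39.6, 43.2 and 40.5 CPM in VCaP-T, 32.1, 29.3 and 32.6 CPM in VCaP-CT and 36.0, 36.6 and 39.4 CPM in VCaP-CT-ER. VCaP-CT-BR libraries read 40.9, 40.4 and 43.2 CPM, and those of VCaP-CT-BR-ER 43.2, 39.6 and 42.6 CPM. VCaP-CT was lowest, VCaP-CT-ER next, and the remaining 3 sublines overlapped. RB1 fell in the first step (log2 -0.39, SE 0.06, edgeR adjusted p = 9.75e-06) and rose under ENZ from VCaP-CT (0.25, SE 0.06, edgeR adjusted p = 0.00126) and under bicalutamide (0.40, SE 0.06, edgeR adjusted p = 1.15e-05). The later ENZ step was 0.01 (95% interval -0.11 to 0.14), not called.

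The ENZ steps were compared by testing the difference between their changes, the later minus the earlier. Each step ends in a single derivation, so the starting point and the derivation cannot be told apart. Of the 9 genes, 1 was called with a larger log2 change in the later step and 4 with a smaller one, against 49.7% of all genes called, 25.2% in the first direction and 24.5% in the second. CCND1 differed by -0.94 (SE 0.06, edgeR adjusted p = 1.98e-11) and CDKN1A by -0.94 (SE 0.10, edgeR adjusted p = 1.27e-07): both rose far less when ENZ followed bicalutamide. CCNE2 differed by -0.46 (SE 0.09, edgeR adjusted p = 0.000281). CDK6 rose more in the later step, by 1.65 (SE 0.56, edgeR adjusted p = 0.0182), but the call was lost without VCaP-CT-BR replicate 1 (edgeR adjusted p = 0.0576), VCaP-CT replicate 2 (0.0639) or VCaP-CT replicate 3 (0.109). Both steps of CDK6 started near the floor of 3 counts, at 3 to 11 counts in VCaP-CT and 3 to 7 in VCaP-CT-BR. CDK6 also passed the filter through the sublines where it is high, so its test in these steps is not independent of that choice. RB1 differed by -0.24 (SE 0.09, edgeR adjusted p = 0.0246), a call lost without VCaP-CT-BR-ER replicate 2 (edgeR adjusted p = 0.0684), VCaP-CT-BR replicate 3 (0.0616) or VCaP-CT-ER replicate 3 (0.0589). The intervals of the other 4 were 0.02 to 0.42 for CCND3, -0.769 to -0.0035 for CCNE1, -0.06 to 0.19 for CDK4 and -0.20 to 0.10 for CDKN1B, and none of these was called.

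The ENZ-selected end points were also compared directly. From VCaP-CT-ER to VCaP-CT-BR-ER, 5 of the 9 genes were higher and 2 lower, against 45.9% of all genes called, 23.3% higher and 22.7% lower. CCND1 was 2.16-fold lower in VCaP-CT-BR-ER (log2 -1.11, SE 0.04, edgeR adjusted p = 3.13e-15) and CDKN1A 1.80-fold lower (log2 -0.85, SE 0.07, edgeR adjusted p = 2.07e-09). CDK6 was 1.96-fold higher (log2 0.97, SE 0.19, edgeR adjusted p = 0.000266), and CDKN1B (0.23), CCNE2 (0.23), CDK4 (0.15) and RB1 (0.16) were higher by small amounts. The RB1 call, with an edgeR adjusted p of 0.0302, was lost under upper quartile scaling (0.0551), both other filters (0.107 and 0.053), and without VCaP-CT-BR-ER replicate 1 (0.137), VCaP-CT-BR-ER replicate 3 (0.109), VCaP-CT-ER replicate 1 (0.140), VCaP-CT-ER replicate 2 (0.101) or VCaP-CT replicate 3 (0.0527). That of CDK4, with an edgeR adjusted p of 0.00799, was lost without a filter (0.0683). CCND3 and CCNE1, with intervals of -0.11 to 0.18 and -0.35 to 0.13, were not called.

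Cancer lines carry gains and losses of chromosome arms, so each member was set beside the tested genes within 5 Mb of it. For CCND3 the values of the gene and its neighbourhood were close: 113 neighbours had a median log2 fold change of -0.69 in the ENZ step from VCaP-CT, where CCND3 changed by -0.66, and of -0.58 in the ENZ step from VCaP-CT-BR, where CCND3 changed by -0.45. In these steps 77% and 62.8% of those neighbours were called lower, against 31.2% and 21.7% of all genes. Other members were close to their neighbours in some steps only. CCNE1 changed by -0.37 in the first step beside a median of -0.25 for 56 neighbours, and its difference in the bicalutamide step, not called, was 0.28 beside a median of 0.32. In the ENZ steps from VCaP-CT and VCaP-CT-BR, CCNE1 rose by 0.94 and 0.55 beside medians of 0.21 and -0.16. CDK4 changed by -0.16, 0.18 and 0.24 in the first step and the ENZ steps, beside medians of -0.24, 0.09 and 0.13 for 174 neighbours. In the bicalutamide step the CDK4 difference, not called, was 0.08 beside a median of -0.21. CDKN1A, on the same chromosome as CCND3, went against its 91 neighbours in the ENZ steps. Their medians were -0.57 and -0.39 while CDKN1A changed by 1.32 and 0.38. CCND1 changed by -0.76, 1.07 and 0.13 in the first step and the ENZ steps, beside medians of 0.10, -0.54 and -0.29 for 209 neighbours. In the bicalutamide step CCND1 was close to them, at -0.17 beside a median of -0.25. CDK6 changed by -3.62, 2.67 and 4.32 in the first step and the ENZ steps, beside medians of -0.14, 0.13 and -0.34 for 44 neighbours. Its difference in the bicalutamide step, not called, was -0.68 beside a median of 0.32. CDKN1B changed by 1.32 in the first step beside a median of 0.44 for 84 neighbours. Copy number was not measured in these libraries, and its part in the results was not tested.

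**Figure D4:**
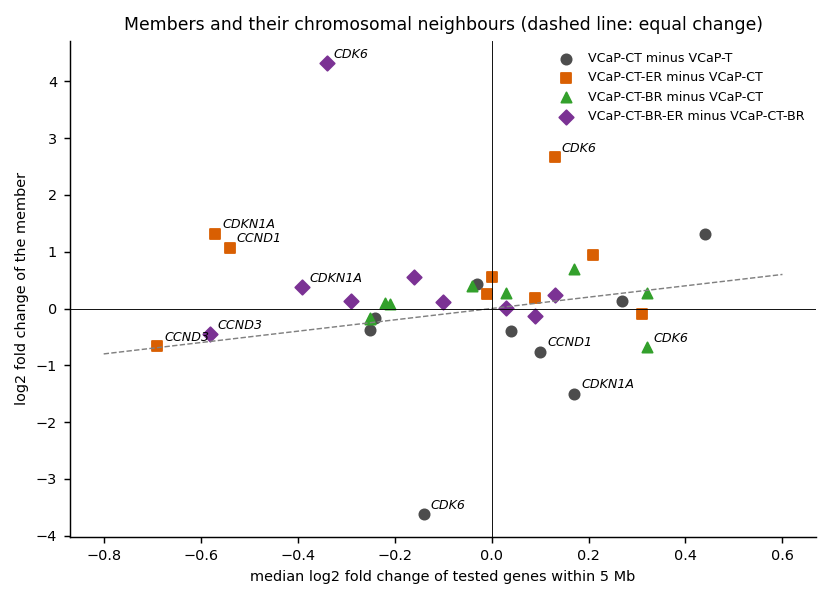
Log2 fold change of each tested member (y axis) against the median log2 fold change of the tested genes within 5 Mb (x axis), with 1 point for each member and step; colour and symbol give the step and the dashed line equal change. CCND3 lies close to the line in both ENZ steps, at neighbour medians of -0.69 and -0.58, while CDKN1A and CCND1 lie far above it in the ENZ step from VCaP-CT.

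The other inhibitors of G1 kinases were followed from a list of 5 genes, of which 4 were tested. CDKN1C was listed at 0 counts. In the 4 steps 0, 4, 3 and 3 of them rose and 2, 0, 1 and 0 fell, and their medians were -0.53, 1.68, 0.63 and 0.54. Of all genes tested, 33.1%, 29.6%, 26.1% and 21.2% were called higher in these steps, and 32.2%, 31.2%, 27% and 21.7% lower. CDKN2B, which encodes the CDK4 and CDK6 inhibitor p15, fell 4.46-fold in the first step (edgeR adjusted p = 5.82e-10) and rose 9.28-fold in VCaP-CT-ER (edgeR adjusted p = 2.01e-13), with means of 3.37, 0.753, 6.999, 1.11 and 2.43 CPM over the sublines. CDKN2D, which encodes p19, fell 1.95-fold (edgeR adjusted p = 3.54e-09) and then rose 3.32-fold (edgeR adjusted p = 1.44e-13). CDKN1A had the same directions in these steps, and unlike these genes was not called in VCaP-CT-BR. There, CDKN2C, which encodes p18, rose 2.37-fold (edgeR adjusted p = 3.53e-13) and CDKN2A fell 2.06-fold (edgeR adjusted p = 6.84e-08). Neither change was the only one: in VCaP-CT-ER, CDKN2C rose 3.1-fold (edgeR adjusted p = 6.36e-16) and CDKN2A rose 1.32-fold (edgeR adjusted p = 0.00133). CDKN2A encodes p16 and, from another reading frame, ARF, which gene counts do not separate.

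Downstream of RB1, 15 of 19 replication genes driven by E2F rose in the first step and 1 fell, with a median log2 fold change of 0.56. In the later steps 8, 13 and 11 rose and 3, 1 and 3 fell, with medians of 0.09, 0.35 and 0.19. The shares of all genes called higher in the 4 steps were 33.1%, 29.6%, 26.1% and 21.2%, and those called lower 32.2%, 31.2%, 27% and 21.7%. CDC45, a part of the replicative helicase, rose 1.99-fold in the first step (edgeR adjusted p = 2.38e-13). RRM2, the regulated subunit of ribonucleotide reductase, went against the list with a 1.81-fold fall (edgeR adjusted p = 4.65e-11), and rose in each later step. Of 12 pocket proteins, E2F and DP factors, 9, 8, 8 and 4 rose and 1, 3, 0 and 2 fell. E2F3 rose 1.62-fold in the first step (edgeR adjusted p = 2.05e-11) and fell 1.98-fold in VCaP-CT-ER (edgeR adjusted p = 8.10e-14), and E2F7, a repressor of the family, rose 2.06-fold there (edgeR adjusted p = 1.47e-11). In the first step, in which these 15 replication genes rose, CCNE2 and CDKN1B rose as well. CCND1, CCNE1, CDK4, CDK6, CDKN1A and RB1 fell there.

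**Figure D5:**
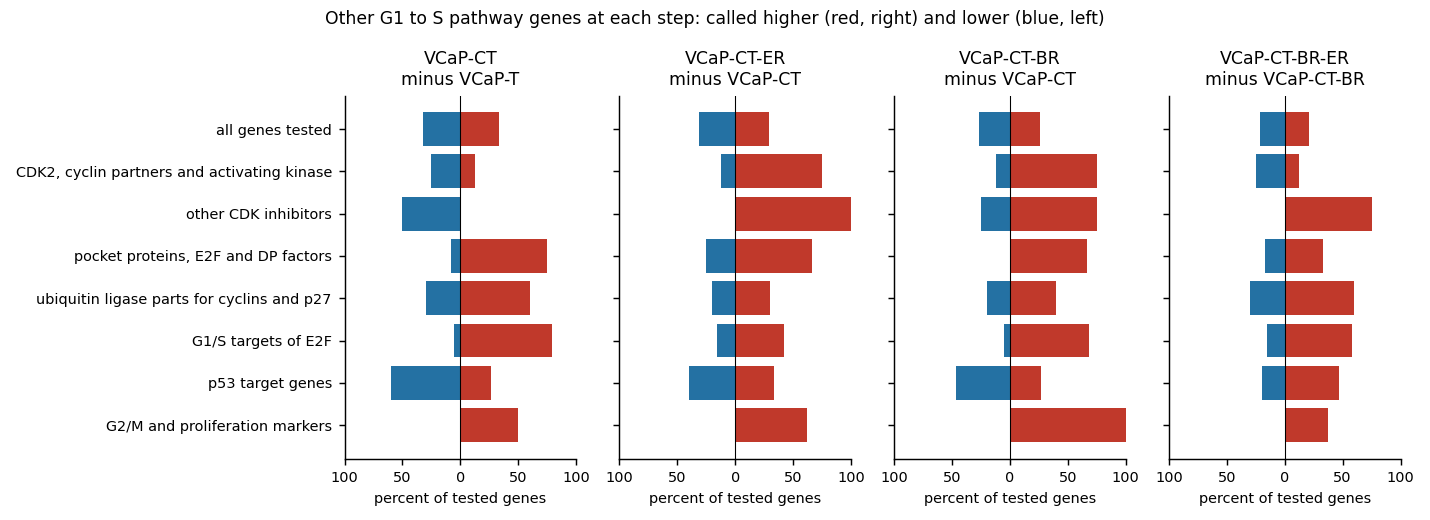
Percent of the tested genes of each pathway list (rows) called higher (red, to the right) and lower (blue, to the left) in each step (panels), with all genes tested at the top. In the first step 78.9% of the E2F replication genes were higher, against 33.1% of all genes; every list has 4 to 19 tested genes, so single genes move these shares.

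Among CDK2, its partners and its activating kinase, 8 of 10 genes were tested, and CCNA1, at 0 counts, and CDK7 were not. In the 4 steps 1, 6, 6 and 1 rose and 2, 1, 1 and 2 fell. Over all genes, 33.1%, 29.6%, 26.1% and 21.2% were called higher and 32.2%, 31.2%, 27% and 21.7% lower. CCNA2, the S phase cyclin, rose 1.91-fold in the first step (edgeR adjusted p = 1.51e-11) and 2.18-fold in the bicalutamide step (edgeR adjusted p = 1.54e-12). CKS1B, a small subunit that helps the SKP2 ligase recognise p27, rose 2.5-fold in VCaP-CT-ER (edgeR adjusted p = 4.97e-15) and 2.30-fold in VCaP-CT-BR (edgeR adjusted p = 1.32e-13), from 78.7 CPM to 197 and 181 CPM. SKP2 itself rose in the same steps (1.72-fold, edgeR adjusted p = 1.83e-10, and 1.36-fold, edgeR adjusted p = 1.86e-06) and in the later ENZ step (1.58-fold, edgeR adjusted p = 5.22e-09). It belongs to a list of 10 ubiquitin ligase parts, of which 6, 3, 4 and 6 rose and 3, 2, 2 and 3 fell. In the ENZ step from VCaP-CT the 30% of this list called higher was near the 29.6% of all genes. FBXO4, whose product can target cyclin D1, fell 1.89-fold in the first step (edgeR adjusted p = 5.63e-09), in which CCND1 fell as well.

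CDKN1A was also set beside 16 other targets of p53, of which 15 were tested. They rose in 4, 5, 4 and 7 cases and fell in 9, 6, 7 and 3, with medians of -0.25, -0.16, -0.14 and 0.09. These were 26.7%, 33.3%, 26.7% and 46.7% higher, against 33.1%, 29.6%, 26.1% and 21.2% of all genes. Lower were 60%, 40%, 46.7% and 20%, against 32.2%, 31.2%, 27% and 21.7%. Several of these shares are thus near those of all genes. SESN2, a stress-induced sestrin, fell 8.88-fold in the first step (edgeR adjusted p = 1.38e-17) and TNFRSF10B, a death receptor, 3.36-fold (edgeR adjusted p = 1.34e-16), while the related SESN1 rose 2.38-fold (edgeR adjusted p = 7.08e-12). In VCaP-CT-ER, MDM2, the ligase that degrades p53, rose 2.15-fold (edgeR adjusted p = 1.64e-12) and FAS fell 3.71-fold (edgeR adjusted p = 4.14e-14). The list therefore did not move in a single direction in any step.

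The 8 genes of G2, mitosis and proliferation rose in 4, 5, 8 and 3 cases in the 4 steps and fell in 0. Among all genes tested, 33.1%, 29.6%, 26.1% and 21.2% were called higher and 32.2%, 31.2%, 27% and 21.7% lower. TOP2A, the topoisomerase that untangles replicated DNA, rose 2.61-fold in VCaP-CT-ER (edgeR adjusted p = 1.43e-13), from 283 to 737 CPM. CCNB1, the mitotic cyclin, rose 1.84-fold in the first step (edgeR adjusted p = 1.33e-11) and 2.14-fold in VCaP-CT-BR (edgeR adjusted p = 1.48e-12). MKI67, the Ki-67 antigen, named after its values were seen, had means of 197, 185, 208, 348 and 362 CPM over the sublines. Cycling of the cells was not measured, and the part of proliferation in the values of the G1 genes was not tested.

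The genes most like each strongly varying member were taken by the Pearson correlation of log2 CPM over the 15 libraries, among 12677 genes. For CCND1 these were SPINK1 (r = 0.986), EVL (0.984) and ASB9 (0.984). SPINK1, a secreted trypsin inhibitor, had means of 45.6, 5.52, 87.1, 5.82 and 6.72 CPM over the sublines, with the same order at its upper end as CCND1. For CCNE2 they were SCML2 (0.995), PTTG1 (0.995) and LAMP2 (0.992), and PTTG1, the securin of mitosis, read 28.9, 42.8, 68.7, 79.0 and 83.3 CPM. For CDK6 they were KLF6 (0.976), EPHX1 (0.972) and TNFRSF19 (0.967), with 17.3, 2.63, 7.43, 1.87 and 16.7 CPM for TNFRSF19. For CDKN1A they were C17orf58 (0.981), ZFAND2A-DT (0.980) and HINT2 (0.978), and for CDKN1B they were C8orf34 (0.998), SI (0.995) and ACKR3 (0.994). ACKR3, a scavenging receptor for chemokine CXCL12, had 0.199 CPM in VCaP-T and 4.69, 3.32, 7.06 and 6.60 CPM in the later sublines. With 5 sublines behind 15 libraries, many genes reach such values, and the correlations describe these libraries only.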

How the data were processed

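Per the labels and the study's methods, total RNA of 5 VCaP sublines was sequenced on an Illumina instrument, with 3 libraries each. The submitters' processing notes name STAR 2.5.4b, featureCounts 1.6.2 and GRCh38. The deposited values are raw fragment counts per gene on GENCODE release 28, counted without regard to strand, so fragments in exons of overlapping genes are left out or cannot be assigned to a strand. The values the authors deposited are not normalised.

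From these counts, symbols were taken from GENCODE release 44 (57754 of 58381 genes). Genes were filtered with filterByExpr (minimum count 10, 19621 genes), scaled by TMM and fitted with edgeR 4.0.16 in R 4.3.3 over all 15 libraries, with a term per subline. Two-sided quasi-likelihood F tests were adjusted by the Benjamini-Hochberg method over all genes, and called under 0.05. The common biological coefficient of variation was 0.0609. CPM use the TMM-scaled library size, log2 CPM a prior count of 2, and TPM the deposited gene length. On simulated data for the first step (18988 genes), 87 of 100 genes changed 2-fold and 78 of 100 changed 1.5-fold were called, with 8 false calls. All other genes were simulated at the same level in every subline, with 1 spread for all genes. In the real data 65.3% of genes were called in this step, so these rates need not hold there. Floors (3 counts) cover counting error only.

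The members and lists were chosen with earlier results of these data known. Named genes were all members, from each list up to 2 genes that rose and 2 that fell most in each step (past the threshold, average log2 CPM of at least 1), and the 3 genes most correlated with each member whose subline means span at least 1 in log2 CPM; genes named outside this rule are marked. Some genes that the rule or the lists would name are not reported here. Promoters came from a RefSeq table of GRCh38.p14. Alternatives were RLE and upper quartile scaling, DESeq2 1.42.0, no filter, at least 10 counts in every library, only the compared sublines, a replicate block and each library left out. Figures were drawn with matplotlib 3.10.9.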

Additional observations from a re-analysis of the deposited data

Results flagged for a closer look

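The changes in the ENZ steps differed from each other for 5 of the 9 tested genes, against 49.7% of all genes tested. The difference itself was tested in the edgeR fit (the step from VCaP-CT-BR minus that from VCaP-CT, on the log2 scale). Each subline is a single derivation, so the starting point and the derivation cannot be told apart. The difference was -0.94 for CCND1, which rose by 1.07 from VCaP-CT and by 0.13 from VCaP-CT-BR, and -0.94 for CDKN1A, which rose by 1.32 and by 0.38. It was -0.46 for CCNE2, which rose by 0.56 from VCaP-CT and was not called from VCaP-CT-BR (0.11). For RB1 it was -0.24, with changes of 0.25 and 0.01, and for CDK6 it was 1.65, with changes of 2.67 and 4.32. The last pair of calls rests on few libraries, as given in the report, and CDK6 started near the floor of 3 counts in both steps. With a share so near that of all genes, the count by itself says little about these genes.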

How the results depend on the processing

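The number of genes called stayed within 1.5 times its value in all 132 combinations of the 6 comparisons with their alternatives. Of 1181 recomputed fold changes of members, 1138 kept their direction and their side of the threshold, 35 lost the call, 6 gained it and 2 reversed. Both reversals were of differences near 0 that were not called: RB1 in the later ENZ step ranged from -0.0067 to 0.0609 with a library left out, and CCND3 between the ENZ-selected end points from -0.0028 to 0.0665. The gained calls were of CCND3 in the first step (upper quartile scaling, adjusted p = 0.0303) and of CCND3 and CCNE1 in the difference between the ENZ steps (adjusted p = 0.0376 to 0.0487). The cause of these changes was not tested.

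Shares depend on the length used. Without division by gene length, CCND1 held 97.43%, 95.35%, 98.55%, 95.39% and 96.86% of the D-type cyclins over the 5 sublines in their usual order, CCND3 2.572%, 4.649%, 1.443%, 4.608% and 3.138%, and CDK4 98.52%, 99.87%, 99.23%, 99.92% and 98.65% of CDK4 and CDK6. With the exon bases that no other gene shares as the length, an alternative chosen after seeing the data, CCND1 held 98.06%, 96.47%, 98.91%, 96.5% and 97.63%, CCND3 1.942%, 3.528%, 1.086%, 3.496% and 2.372%, and CDK4 99.78%, 99.89%, 99.99% and 99.8% in the sublines other than VCaP-CT.

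The labels give no shared origin for the replicate numbers. Deviations of same-numbered libraries had a mean correlation of -0.256 in the first step and of 0.101 to 0.254 in the other 4 comparisons of sublines, and in each comparison at least 1 pair was below 0 (lowest -0.464), so the numbers were not taken as pairs. With the replicate block, 12727, 11861, 10322, 8378, 8990 and 9659 genes were called in the 6 comparisons, against 12821, 11941, 10429, 8419, 9014 and 9753 without it, and no call of a member changed. Low counts limit the precision of CDK6 in VCaP-CT and VCaP-CT-BR and of CCNE1.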
